A study of Mus musculus with 13 samples.

Results

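The insulin-like growth factor (IGF) system was described here by 10 genes of the deposited table, taken by symbol from its 18748 genes: the ligands Igf1 and Igf2, the receptors Igf1r and Igf2r, and the binding proteins Igfbp2, Igfbp3, Igfbp4, Igfbp5, Igfbp6 and Igfbp7. Messenger RNA had been sequenced from the mandibular condylar cartilage, which caps the jaw side of the temporomandibular joint, in mice of 2 ages. There were 7 libraries from young mice (2 months old) and 6 from aged mice (18 months old), and the labels name no strain, treatment, sex or genotype. The libraries are numbered, with no statement that each came from 1 mouse, so p-values measure the spread between libraries. The study asks which genes differ between the ages.

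IGF1 and IGF2 are small secreted growth factors that act on chondrocytes and osteoblasts through the IGF1 receptor, a tyrosine kinase that signals through IRS adaptors, PI3 kinase and AKT. The IGF2 receptor has no kinase and carries IGF2 to the lysosome for breakdown. Binding proteins hold the ligands outside the cell, can block or prolong their action, and are cut by proteases that set the ligand free. In growing cartilage, including that of the condyle, IGF signalling is known for driving proliferation and matrix synthesis.

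Library totals were 17531694 to 18203443 expected counts in young and 16356839 to 17876681 in aged mice, and 14067 genes had enough counts to be tested. The markers of the labelled tissue were present: 8 chondrocyte markers summed to between 12804 and 19627 TPM (a share of all transcripts, per length) in young and between 7352 and 16841 TPM in aged libraries, with 5 called lower and 1 higher. Of 4 markers of hypertrophic chondrocytes 2 were called lower (1636 to 4283 TPM in aged, 4408 to 6287 in young). Bone was present too, with 8 osteoblast and osteocyte markers at 31211 to 42580 TPM in young and 9647 to 20026 TPM in aged libraries, 6 of them called lower. Markers of red cells (9180 to 69243 TPM in aged, 2044 to 7905 TPM in young), neutrophils (5088 to 30948, against 3849 to 11140 TPM) and skeletal muscle (7557 to 29808, against 1031 to 9123 TPM) were higher in the aged mice, with 9 of 9, 7 of 8 and 8 of 10 markers called higher. Markers of the superficial and fibrous layer were higher too (1456 to 2773, against 507 to 804 TPM, 4 of 8 called higher). Those of osteoclasts were lower (2815 to 5636, against 7067 to 9008 TPM, 5 of 5 called lower). No marker of these lists was at 0 in all libraries. Liver markers, which would mark the main source of circulating IGF1, summed to at most 0.61 TPM in any library. In bulk tissue, fewer cells of a type and less RNA per cell cannot be told apart.

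The sequences before the start sites of 5 members are shown first, so that 3 of the 5 members that fell (Igf1, Igf2 and Igfbp3) can be set beside the 2 that rose (Igfbp6 and Igfbp7). These 5 had the smallest adjusted p-values among the members, and each stretch is the 250 bases before a RefSeq start (build GRCm38.p6, another build than the authors' GRCm39). All 10 members were matched in that table, in 14 windows. Capitals mark matches, on either strand, to the GC box GGGCGG or the TATA box TATAAA, and the E-box CACGTG was searched as well.

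Igf1, chr10:87860861-87861110, + strand: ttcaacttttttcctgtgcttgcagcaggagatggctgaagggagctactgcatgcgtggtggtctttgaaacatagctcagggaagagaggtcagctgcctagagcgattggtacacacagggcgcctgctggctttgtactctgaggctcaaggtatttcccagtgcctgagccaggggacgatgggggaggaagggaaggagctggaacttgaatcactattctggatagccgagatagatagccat

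Igf2, the last of 4 starts, chr7:142657497-142657746, - strand: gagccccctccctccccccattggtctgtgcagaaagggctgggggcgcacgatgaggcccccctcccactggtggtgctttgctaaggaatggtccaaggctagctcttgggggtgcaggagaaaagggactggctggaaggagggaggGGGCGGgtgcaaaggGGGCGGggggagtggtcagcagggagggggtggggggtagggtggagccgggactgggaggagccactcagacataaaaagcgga

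Igfbp3, chr11:7213924-7214173, - strand: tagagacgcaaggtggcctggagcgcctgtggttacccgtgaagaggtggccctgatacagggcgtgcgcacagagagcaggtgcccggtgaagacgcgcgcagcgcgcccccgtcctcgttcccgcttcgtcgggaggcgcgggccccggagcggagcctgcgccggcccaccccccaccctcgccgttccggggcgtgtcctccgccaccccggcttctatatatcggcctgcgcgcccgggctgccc

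Igfbp6, chr15:102143936-102144185, + strand: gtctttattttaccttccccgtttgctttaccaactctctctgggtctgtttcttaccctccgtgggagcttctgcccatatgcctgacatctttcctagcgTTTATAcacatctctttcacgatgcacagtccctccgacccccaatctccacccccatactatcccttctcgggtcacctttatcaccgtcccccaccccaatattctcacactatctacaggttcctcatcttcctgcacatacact

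Igfbp7, chr5:77408046-77408295, - strand: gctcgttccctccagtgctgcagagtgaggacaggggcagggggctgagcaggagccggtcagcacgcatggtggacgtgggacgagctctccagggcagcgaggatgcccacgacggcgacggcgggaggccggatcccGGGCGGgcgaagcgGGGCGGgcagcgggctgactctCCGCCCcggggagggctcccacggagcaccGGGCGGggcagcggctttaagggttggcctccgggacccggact

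The stretches differ in CpG content, a common feature of broadly used start sites: Igfbp3 held 32 CpG pairs and Igfbp7 26, against 5 in Igf1, 7 in Igfbp6 and a median of 6 over 32851 windows of the same length. Igfbp7 held 4 GC boxes and the Igf2 stretch 2, a motif present in 32.7% of all windows. Igfbp6 held the only exact match to the TATA box letters among the 5 (12.4% of all windows), read on the opposite strand as TTTATA. Variants of these letters were not searched. The Igfbp6 match lay toward the middle of its stretch, not close to the start. None of the 5 held an E-box (6.02% of all windows). None of these 3 motifs was found in all 3 printed stretches of members that fell or in both of those that rose. The other two members that fell, whose windows are not printed, held GC boxes and E-boxes: Igf2r had 3 and 2, and the first of 2 Igfbp2 windows 3 and 1, with none in the second. The counts are per gene, so the 4 Igf2 starts cannot be told apart in these data.

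Of the 10 members, all of which passed the filter on low counts, 5 fell, 2 rose and 3 were not called in aged against young cartilage. This makes 7 called members beside 46.2% of all tested genes (edgeR's quasi-likelihood test, Benjamini-Hochberg adjusted p threshold 0.05). Among those that fell, Igfbp2 had few counts and passed the filter through the young libraries, which favours falls. Of all tested genes, 24.7% were called higher and 21.6% lower. The median log2 fold change of the members was −0.24, and that of all tested genes 0.014. The values of the 2 ages did not overlap for 3 members, Igf2, Igfbp3 and Igfbp7, and for 19.2% of all tested genes. Without aged replicate 6, which stood apart in Igf1 and Igfbp4, the counts of members were the same, with 5 lower and 2 higher. Values by library are in CPM, the counts of a gene as a share of the library's total after scaling by TMM (edgeR's correction for library composition), the scale of the test. With library sizes alone in its place, the median of all tested genes moved to 0.24, and 7034 genes were called higher and 1253 lower, against 3471 and 3033 with TMM. The split was 6250 and 1361 on log2(FPKM + 1), and 3883 and 2211 on log2(TPM + 1).

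The test was also run with 1 marker score added as a covariate at a time: a blood-cell score (erythroid and neutrophil markers), a muscle score and a bone score (osteoblast and osteocyte markers). These scores follow age themselves (r = 0.884, 0.756 and −0.887 with the age group over 13 libraries). With each of them 3 members were called, among them Igf2 and Igfbp3 each time. Calls became fewer across the whole table too. Of 14067 tested genes, 2632 were called with the blood-cell score, 3781 with the muscle score and 1139 with the bone score, against 6504 without a score.

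**Figure D1:**
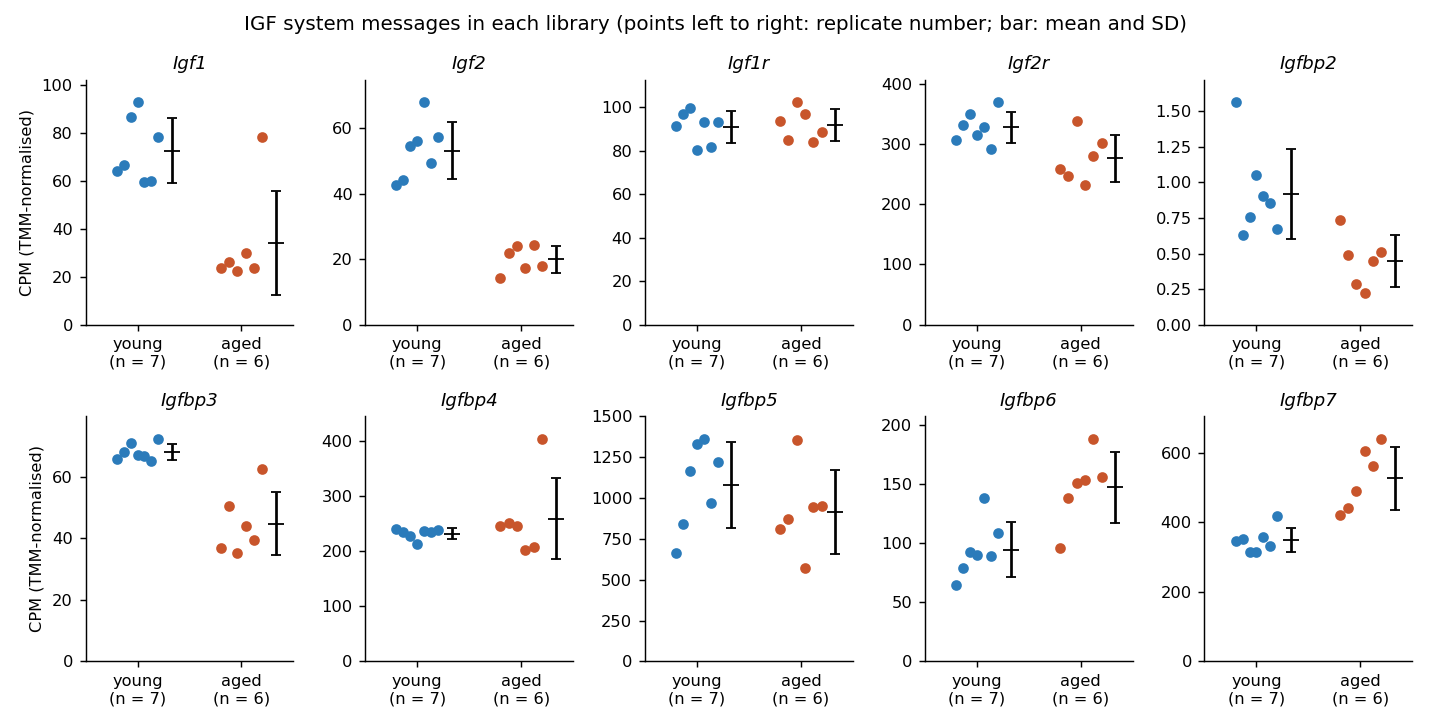
CPM (TMM-normalised, linear axis from 0) of each member in each library, with replicates from left to right in number order, young (n = 7) in blue and aged (n = 6) in orange. The black bar gives the mean and SD. Igf2 and Igfbp3 lay lower and Igfbp7 higher in all aged libraries, and for Igf1 aged replicate 6, at 78.4 CPM, stood apart from the other aged libraries.

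Both ligands fell. Igf2 (gene ID 16002), an imprinted fetal growth factor, was at 42.7 CPM in the lowest, 54.7 in the median and 68.1 in the highest young library, and at 14.2, 19.9 and 24.4 CPM in the aged ones. The highest aged library was thus below the lowest young one. Its log2 fold change was −1.41 ± 0.14 (SE) by edgeR, adjusted p = 3.66e-06, or 2.66-fold lower, and it kept its call under each alternative tried. With a marker score as covariate it was between −1.07 and −1.74. In the RefSeq table Igf2 overlaps the antisense gene Igf2os, and no source used here gives the strand setting of the counting.

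Igf1 (gene ID 16000), the ligand that answers to growth hormone, was at 59.7, 66.9 and 93.1 CPM in the lowest, median and highest young library. In the aged libraries it was at 22.6 CPM in the lowest, 24.9 in the median and 78.4 in the highest. Of the aged libraries, 5 lay between 22.6 and 29.9 CPM, below all young ones, and aged replicate 6 lay within the young range. The log2 fold change was −1.09 ± 0.28 (SE) by edgeR, adjusted p = 0.00624, and without aged replicate 6 it was −1.53 (edgeR adjusted p = 1.43e-06). The aged mean was 34.1 ± 21.9 CPM (SD, n = 6), and leaving out this library gave 25.2 ± 2.89 CPM (SD, n = 5).

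Aged replicate 6 also had the highest summed markers of red cells (69243 TPM), neutrophils (30948 TPM), macrophages (3989 TPM, against 1652 to 3697 in the other aged libraries, with 3 of 7 markers called higher with age and 2 lower) and the superficial and fibrous layer (2773 TPM). Its chondrocyte and osteoblast sums were the lowest of the 13 libraries. With the blood-cell score as covariate the log2 fold change of Igf1 was −1.90 (edgeR adjusted p = 0.0567), and with the muscle score −0.78 (0.137), so the call was lost in both fits while the direction held. With the bone score it was −2.12 (0.032). Igf2 was 1.31 to 2.76 times as abundant as Igf1 per length (TPM) in 12 libraries, and 0.605 times in aged replicate 6.

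Of the 2 receptors, 1 fell slightly and 1 was not called. Igf1r (gene ID 16001), the signalling receptor, was at 80.4, 93.2 and 99.7 CPM in the lowest, median and highest young library and at 84.1, 91.1 and 102 CPM in the aged ones, so the ages overlapped almost fully. Its log2 fold change was 0.014 ± 0.065 (SE) by edgeR, adjusted p = 0.874. It was 0.24 with library sizes alone (adjusted p = 0.00531), the same to 2 decimals as the median shift of all genes there. Igf1r was also called higher on log2(FPKM + 1), at 0.22 (limma adjusted p = 0.00693), and on log2(FPKM + 0.1), at 0.24 (0.00704). The medians of all tested genes on these scales were 0.17 and 0.21. The value of Igf1r turned below 0 without young replicate 4 or 6 or aged replicate 3 or 4.

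Igf2r (gene ID 16004), the clearance receptor, was at 292, 328 and 370 CPM in the lowest, median and highest young library and at 233, 269 and 339 CPM in the aged ones. The ages overlapped, with aged replicate 3 above the young median. It fell by 0.25 ± 0.089 on the log2 scale (SE) by edgeR, adjusted p = 0.0345. The call was lost on leaving out any 1 of 8 libraries (adjusted p between 0.0510 and 0.0717 there), and with library sizes alone the value was −0.016. With the blood-cell score as covariate it was 0.062 (adjusted p = 0.825). Igf2r overlaps the antisense gene Airn in the RefSeq table, as Igf1 does Igf1os and Igfbp7 does Polr2b, and reads of such pairs may not be told apart.

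Of the 6 binding proteins, 2 fell, 2 rose and 2 were not called. Igfbp3 (gene ID 16009), the main carrier of IGFs in blood and also a local inhibitor in cartilage, was at 65.1, 66.9 and 72.4 CPM in the lowest, median and highest young library and at 35.2, 41.7 and 62.5 CPM in the aged ones. All aged libraries were below all young ones, and aged replicate 6 came closest. Its log2 fold change was −0.60 ± 0.11 (SE) by edgeR, adjusted p = 0.0007, and it was called under each alternative tried, between −0.37 and −0.88.

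Igfbp2 (gene ID 16008), a binding protein with preference for IGF2, was close to the limit of detection, with 4 to 27 expected counts per library. It was at 0.632, 0.857 and 1.57 CPM in the lowest, median and highest young library and at 0.222, 0.468 and 0.739 CPM in the aged ones. The log2 fold change was −1.02 ± 0.30 (SE) by edgeR, adjusted p = 0.0118. A gene at this level passes the filter through the young libraries, which favours falls. On the log2(FPKM + 1) scale, which understates the change of low genes, it was −0.23 (limma adjusted p = 0.129). The call was also lost with the smaller added value of log2(FPKM + 0.1), at −0.54 (limma adjusted p = 0.109), and on log2(TPM + 1), at −0.43 (0.0507). It was −2.24 with the blood-cell score (adjusted p = 0.0176), and the call was lost with the muscle score (−0.61, 0.312) and the bone score (−1.71, 0.133). Its neighbour on the chromosome, in the RefSeq table, is Igfbp5.

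Igfbp6 (gene ID 16012), which prefers IGF2 over IGF1, rose. It was at 64.5, 90.2 and 138 CPM in the lowest, median and highest young library and at 96.1, 152 and 188 CPM in the aged ones. Aged replicate 1 lay within the young range, and young replicate 5 was the highest of the young. The log2 fold change was 0.64 ± 0.17 (SE) by edgeR, adjusted p = 0.00651, a 1.56-fold rise. The call was lost with each marker score as covariate: the value was 0.72 with the blood-cell score (adjusted p = 0.178), 0.49 with the muscle score (0.214) and 0.19 with the bone score (0.763). Red cell, neutrophil and skeletal muscle markers were higher with age, as given above. So was the sum of superficial and fibrous layer markers, with 4 of 8 called higher. The part of that layer in the result was not tested.

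Igfbp7 (gene ID 29817), a related secreted protein that binds IGFs weakly and is made by many stromal and vascular cells, rose as well. It was at 315, 347 and 417 CPM in the lowest, median and highest young library and at 421, 527 and 641 CPM in the aged ones. The lowest aged library was just above the highest young one. The log2 fold change was 0.60 ± 0.11 (SE) by edgeR, adjusted p = 0.000438, or 1.51-fold. It was 0.49 with the blood-cell score as covariate (adjusted p = 0.147) and 0.42 with the bone score (0.253), so the call was lost in both fits. With the muscle score it was 0.67 (0.00874) and the call held. The summed endothelial markers spanned 201 to 294 TPM in young and 191 to 296 TPM in aged libraries, with 1 of 6 called higher and 2 lower.

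Igfbp4 and Igfbp5, both substrates of pappalysin proteases, were not called. Igfbp4 (gene ID 16010), an inhibitor of IGF action, was at 212, 236 and 240 CPM in the lowest, median and highest young library and at 202, 245 and 404 CPM in the aged ones. Aged replicate 6 held the value of 404 CPM, and the other 5 aged libraries lay between 202 and 251 CPM. The log2 fold change was 0.16 ± 0.13 (SE) by edgeR, adjusted p = 0.344, and −0.016 without aged replicate 6. Scaling by library sizes alone gave 0.39 (adjusted p = 0.0234), and the sign turned with the blood-cell score (−0.16) and the bone score (−0.45).

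Igfbp5 (gene ID 16011), the binding protein most tied to bone and growth plate matrix, was at 662, 1167 and 1364 CPM in the lowest, median and highest young library and at 570, 908 and 1358 CPM in the aged ones, with wide overlap. Its log2 fold change was −0.24 ± 0.20 (SE) by edgeR, adjusted p = 0.351. It turned to 0.28 with the blood-cell score as covariate (adjusted p = 0.639). The highest library of each age, young replicate 5 and aged replicate 3, reached about the same level.

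The spread of some members differed between the ages, which was not tested. The coefficient of variation of CPM was 3.96% in young and 23.0% in aged libraries for Igfbp3, 4.18% and 28.5% for Igfbp4, and 18.5% and 64.1% for Igf1. For Igf1r it was 8.02% and 7.84%. Aged replicate 6 was the highest aged library for Igf1, Igfbp3, Igfbp4 and Igfbp7. Without it the aged value was 14.98% for Igfbp3, 10.1% for Igfbp4 and 11.5% for Igf1, the last below that of the young libraries.

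Per length, in TPM, Igfbp4, Igfbp5, Igfbp6 and Igfbp7 had higher mean levels than the other members at both ages, and Igfbp2 the lowest. In young cartilage the order was Igfbp7 (897 ± 77.5 TPM, SD, n = 7), Igfbp5 (398 ± 100), Igfbp4 (266 ± 7.87), Igfbp6 (201 ± 47.7), Igf2r (77.5 ± 7.02), Igfbp3 (65.3 ± 3.51), Igf2 (41.4 ± 6.66), Igf1 (22.0 ± 4.56), Igf1r (16.4 ± 1.28) and Igfbp2 (1.96 ± 0.598). The ranges of neighbours in this order overlapped for Igfbp5 with Igfbp4, Igfbp4 with Igfbp6, Igf2r with Igfbp3 and Igf1 with Igf1r.

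In aged cartilage Igfbp7 was again first, at 1383 ± 203 TPM (SD, n = 6). Igfbp5 (360 ± 118 TPM), Igfbp6 (320 ± 56.8) and Igfbp4 (310 ± 80.2) followed with overlapping ranges, and Igfbp6 was above Igfbp4 in 3 of 6 libraries. Igf1r (17.7 ± 2.34 TPM) stood before Igf2 (16.0 ± 4.18) and Igf1 (10.7 ± 6.42) by mean, where it had been after both in young cartilage. Igf1r and Igf2 overlapped in the aged libraries, with Igf1r higher in 3 of 6, whereas Igf2 was above Igf1 in all 7 young libraries and Igf1 above Igf1r in all 7.

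**Figure D2:**
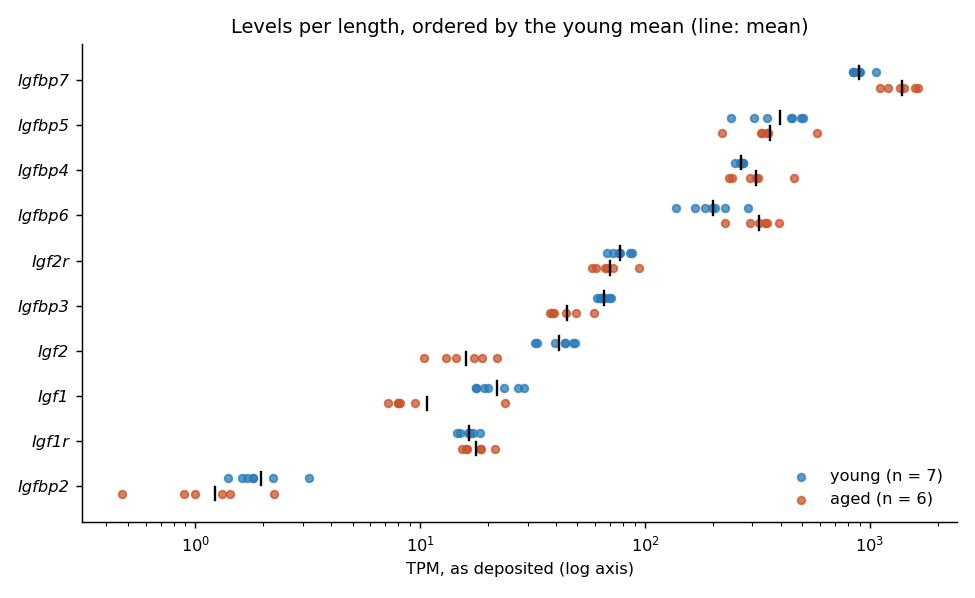
TPM of each member as deposited (log axis), one point per library, young (n = 7) in blue above aged (n = 6) in orange, with genes ordered by the young mean and a line at each mean. Igfbp7 was first at both ages, and the means of Igf2 and Igf1 were above that of Igf1r in young and below it, at 17.7 TPM, in aged libraries.

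Summed per library, Igf1 and Igf2 messages made 51.5 to 73.0 TPM in young and 18.3 to 38.1 TPM in aged cartilage. The 6 binding proteins together made 1614 to 2080 TPM in young and 2076 to 2772 TPM in aged cartilage, and Igfbp7 was 44.9% to 55.5% of that sum in young and 51.4% to 65.7% in aged libraries. The ratio of binding protein to ligand messages was 25.5 to 32.0 in young (median 29.6) and 72.7 to 115 in aged libraries (median 93.6). Without Igfbp7 the ratio was 13.9 to 16.7 in young and 31.2 to 49.6 in aged libraries. These ratios are given as a description, with no test, and they are ratios of messages and not of proteins.

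**Figure D3:**
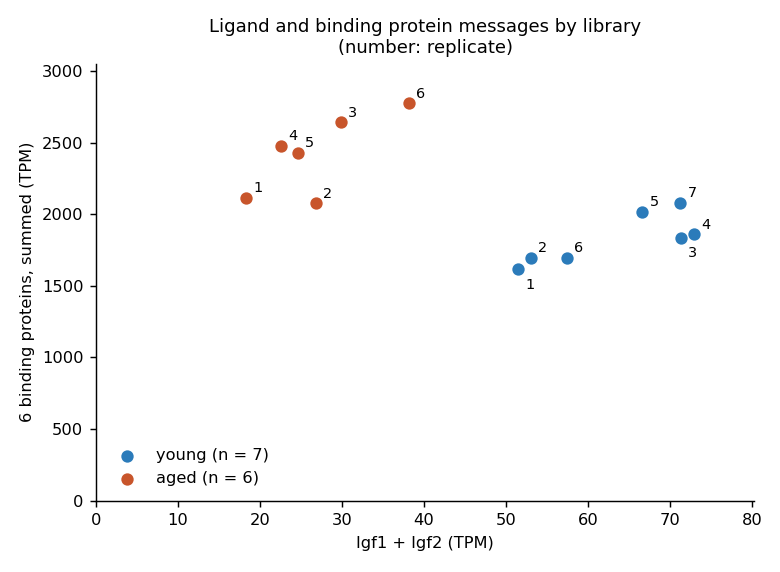
Summed TPM of the 6 binding proteins (vertical) against summed TPM of Igf1 and Igf2 (horizontal), one point per library with its replicate number, both axes from 0. The aged libraries (orange, n = 6) lay at 18.3 to 38.1 TPM of ligand message and the young ones (blue, n = 7) at 51.5 to 73.0 TPM.

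The wider pathway was read from 34 genes in 5 lists, of which 28 were tested: 12 fell, 4 rose and 12 were not called. These 16 called genes stand beside 46.2% called among all tested genes, with 21.6% lower and 24.7% higher, and the list counts below are to be read against the same shares. The lists were chosen with earlier results of these data known, so their counts are a description only. Among 11 genes of receptor signalling 7 fell and 1 rose (all tested genes: 21.6% lower, 24.7% higher), with a median log2 fold change of −0.25. The 2 main adaptors of the IGF1 and insulin receptors went opposite ways. Irs1 fell from a young mean of 117 ± 7.09 CPM (SD, n = 7) to an aged mean of 72.0 ± 14.7 CPM (SD, n = 6), with a log2 fold change of −0.70 ± 0.10 (SE) by edgeR, adjusted p = 0.000115. Irs2 rose from 25.3 ± 1.60 to 45.2 ± 4.72 CPM, a log2 fold change of 0.83 ± 0.071 (SE) by edgeR, adjusted p = 9.73e-07. For both genes the ages did not overlap. Irs2 kept its call under each alternative tried, while Irs1 lost it with the blood-cell score (−0.28, adjusted p = 0.269) and with the bone score (−0.58, 0.144) as covariate.

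Grb10, an imprinted adaptor that restrains IGF1 and insulin receptor signalling, fell from 259 ± 21.6 to 126 ± 16.4 CPM (a log2 change of −1.04 ± 0.086 (SE) by edgeR, adjusted p = 7.6e-07), and was called under each alternative tried. Its relative Grb14 fell by 0.82 on the log2 scale, and lost its call with the same 2 scores (−0.46 and −0.18). The falls of Akt1, Pik3ca and Shc1 were small, at −0.27, −0.25 and −0.20. Each of these 3 was lost with library sizes alone, where Akt1 and Pik3ca stood at −0.040 and −0.016 and Shc1 at 0.034. The insulin receptor gene Insr was at 71.3 ± 4.55 CPM in the young and 72.7 ± 5.61 in the aged libraries and was not called (edgeR adjusted p = 0.728).

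Among 7 genes of growth hormone input, Stat5a and Stat5b, the transcription factors through which growth hormone raises Igf1, rose by 0.33 and 0.30 on the log2 scale and 5 were not called (list median 0.30). The growth hormone receptor gene Ghr was at 40.1 ± 3.71 CPM in the young and 35.3 ± 5.87 in the aged libraries (edgeR adjusted p = 0.151). Both Stat5 genes lost their call with the blood-cell score as covariate, at 0.25 (adjusted p = 0.211) and 0.30 (0.0663), and with the bone score, at 0.21 (0.35) and 0.24 (0.195).

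Among 7 proteases of binding proteins, their inhibitors and partners, 3 fell and 1 rose (median −0.31), so 4 of 7 were called, near the 46.2% of all tested genes. Pappa2, a pappalysin that cuts IGFBP3 and IGFBP5, fell from a young mean of 11.5 ± 2.53 CPM (SD, n = 7) to an aged mean of 4.06 ± 3.11 CPM (SD, n = 6), with a log2 fold change of −1.50 ± 0.38 (SE) by edgeR, adjusted p = 0.00504. In the aged libraries it was between 1.58 and 2.72 CPM in 4 and at 6.59 and 9.20 CPM in aged replicates 5 and 6. It was no longer called with the blood-cell score (−2.07, adjusted p = 0.104) and with the muscle score (−1.29, 0.0974). Stc2, which encodes the pappalysin inhibitor stanniocalcin 2, rose from 18.8 ± 2.20 to 41.2 ± 10.5 CPM (a log2 change of 1.13 ± 0.16 (SE) by edgeR, adjusted p = 6.77e-05), with its lowest aged value of 22.3 CPM in aged replicate 6. It was called under each alternative tried. Pappa, which cuts IGFBP4, and Stc1 fell by 0.46 and 0.50, and both lost their call with library sizes alone (adjusted p = 0.181 for both). Pappa also lost it without young replicate 2 (adjusted p = 0.052), and stood at 0.19 with the blood-cell score and at 0.45 with the bone score as covariate. Htra1, a serine protease of binding proteins, was abundant and not called, at 730 ± 62.7 CPM in the young and 734 ± 118 in the aged libraries.

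Of the list of Igf2 mRNA binding and imprinted genes, 3 were tested and 2 fell. Plagl1, an imprinted transcription factor of fetal growth, fell from 82.6 ± 14.7 to 35.1 ± 5.47 CPM (a log2 change of −1.24 ± 0.12 (SE) by edgeR, adjusted p = 4.03e-06). Igf2bp3, an RNA-binding protein of fetal tissues, fell from 0.905 ± 0.318 to 0.144 ± 0.0941 CPM, with 0 to 5 expected counts in the aged libraries, and it passed the filter through the young ones. Its call was lost with the blood-cell score and with the bone score. Of the 13 fits with 1 library left out, Igf2bp3 was tested in 7 and called in each of those. No row of the deposited table carried the symbols H19, Igfbp1 or Igf2os, so these were not analysed here. Igf2bp1, Igfbpl1 and Insrr were at too few counts to be tested.

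**Figure D4:**
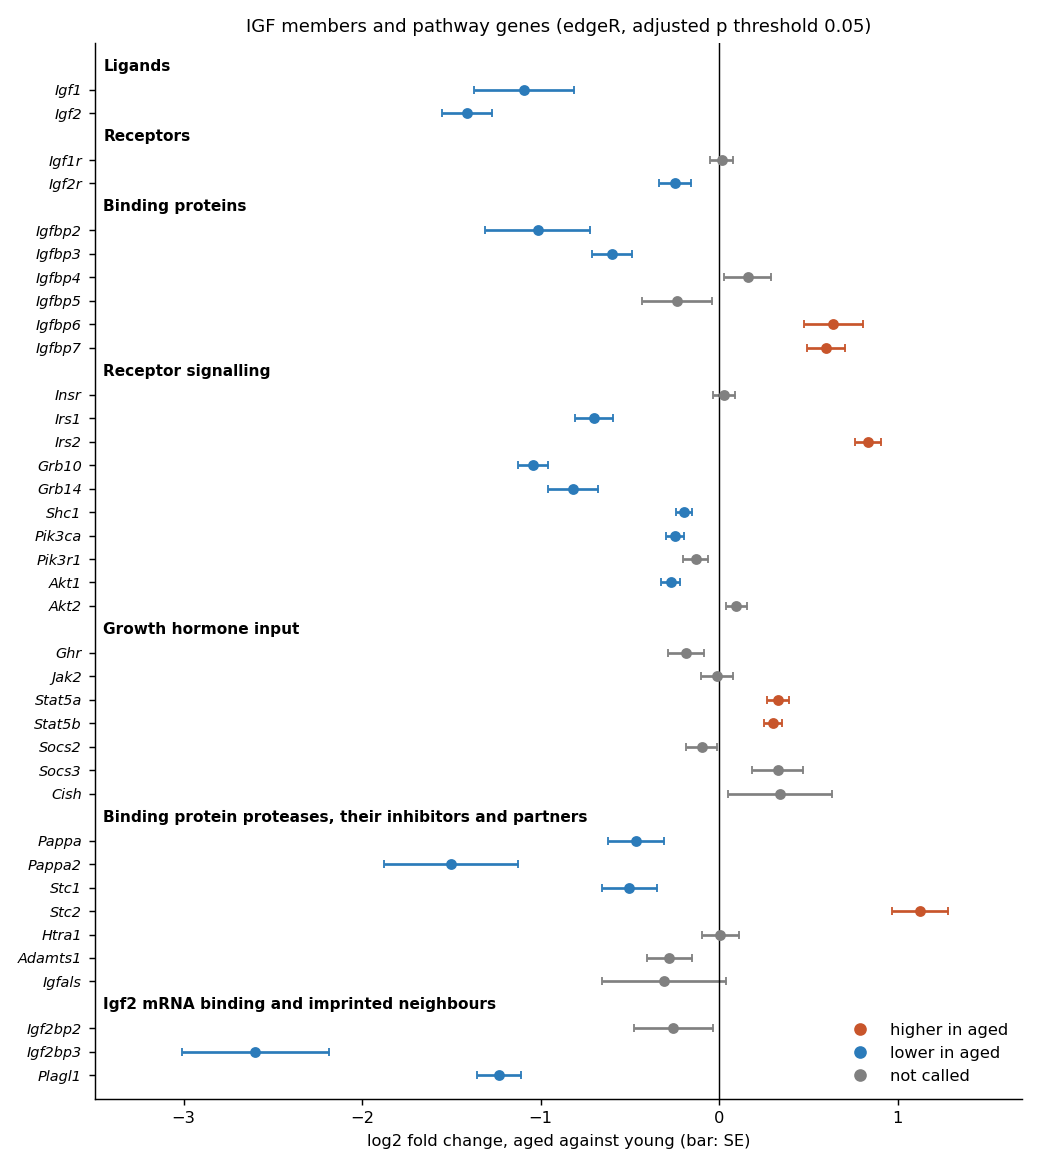
Log2 fold change of aged against young with its SE for the 10 members and 27 pathway genes, grouped by role. Orange marks genes called higher, blue genes called lower and grey genes not called (edgeR adjusted p threshold 0.05). The ligands lay left of 0 at −1.09 and −1.41, Igf1r at 0.014, and the binding proteins from −1.02 to 0.64.

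For each member, the 2 genes with the most similar pattern within the ages were taken from 9147 candidates averaging 5 FPKM or more (9148 for Igfbp2), by Pearson's r of log2 CPM centred in each age over the 13 libraries. The r values, from 0.838 to 0.961, are a description with no test, and the genes of a pair share each library's cell composition and depth. Picking the highest r from so many candidates over 13 libraries also raises these values by itself. Lamb1, a laminin chain (r = 0.952), and Vcan, the proteoglycan versican (0.895), were nearest to Igf1. Without aged replicate 6 and young replicate 4, the libraries farthest from the median, these were 0.717 and 0.763. Vcan fell with age (log2 fold change −1.43) and Lamb1 was not called (−0.36, edgeR adjusted p = 0.26). Plxdc2 and Mn1 were nearest to Igf2 (0.911 and 0.902) and both rose with age, by 0.32 and 0.97, while Igf2 itself fell.

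Npas2, a clock transcription factor, and Ankrd50 were nearest to Igf1r, and Rab11fip5 and Nynrin to Igf2r. Folr2, a folate receptor of tissue macrophages, and Sec61a1, a channel subunit for secreted proteins, were nearest to Igfbp7 (0.961 and 0.959, both 0.942 without the 2 libraries farthest from the median). Nnmt and the lysosomal protease gene Ctsb were nearest to Igfbp4 (0.896 and 0.893), and their r fell to 0.522 and 0.457 without aged replicates 6 and 4, so it rested on those libraries. Usp22 and Nsmf were nearest to Igfbp5, Khdrbs3 and Slc35e4 to Igfbp6, Nt5dc2 and Evi2a to Igfbp3, and Miip and Abhd10 to Igfbp2. The r of Evi2a was 0.578 without aged replicates 6 and 3.

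**Figure D5:**
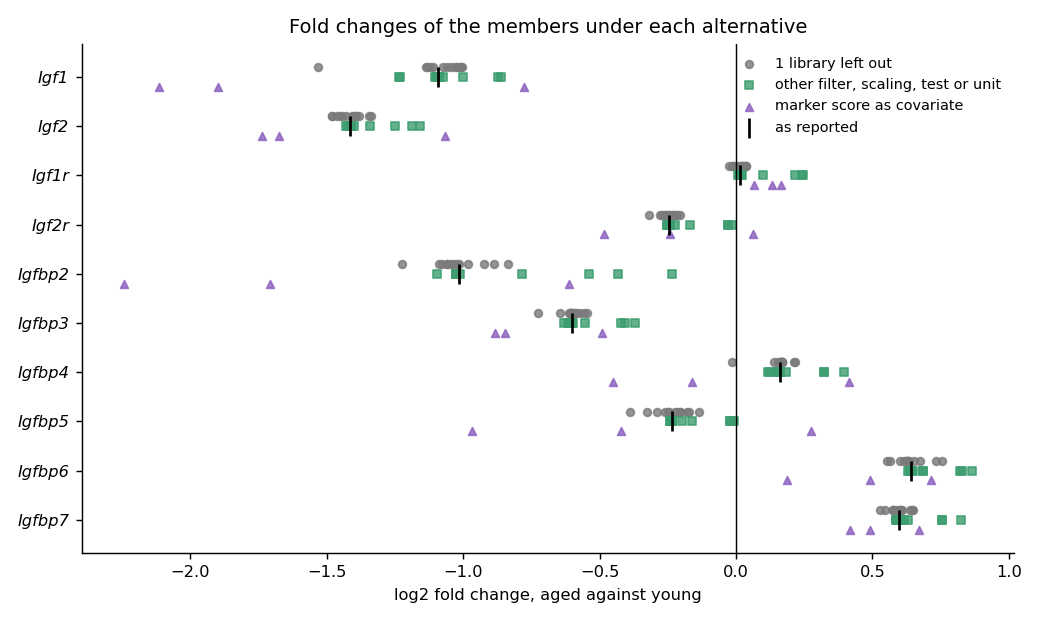
Log2 fold change of each member as reported (black line), with each library left out (grey circles), under another filter, scaling, test or unit (green squares) and with a marker score as covariate (purple triangles). Igf2 stayed between −1.74 and −1.07 and Igfbp3 between −0.88 and −0.37, while Igf1r, Igf2r, Igfbp4 and Igfbp5 lay on both sides of 0.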

How the data were processed

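RNA was extracted with TRIzol, captured on oligo(dT) beads and read as strand-specific pairs on a DNBSEQ instrument, per the labels' protocols. The submitters' processing notes name HISAT2 2.1.0, Bowtie2 2.3.4.3, RSEM 1.3.1, DESeq2 1.4.5 and build GRCm39, with no role or order. The annotation and the strand setting are not stated in them. The deposited table holds 18748 genes with RSEM-type expected counts for each library, per its header (5.30% of values were not whole). FPKM and TPM, which the authors scaled by gene length and depth, are further columns of this deposited table.

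Groups follow the ages in the sample titles. For the test, expected counts were rounded and tested with edgeR 4.0.16 in R 4.3.3: filterByExpr (minimum count 10, minimum total 15), TMM factors, glmQLFit with robust estimation and glmQLFTest on all 13 libraries, adjusted over all 14067 tested genes. The SE is the size of the log2 fold change over the root of its F statistic. Marker scores are means of log2 CPM (prior count 2). Alternatives were no filter or CPM of at least 1 in 6 libraries, library sizes alone, RLE and upper quartile factors, DESeq2 1.42.0, limma-voom and limma 3.58.1 on log2(FPKM + 1), log2(FPKM + 0.1) and log2(TPM + 1), adjustment for 1 of 3 marker scores (blood-cell, muscle and bone), a replicate block, and leaving out each library. The members, gene lists and marker lists were chosen with earlier results of these data known. The rule for named genes took all members, the pathway lists and the 2 genes nearest to each member. Of the pathway genes, those called are given under the alternatives, and 1 gene that enters the counts is not reported here. No 2 libraries of an age agreed within sampling noise (smallest chi-square per degree of freedom 9.87). The fitting was run on simulated counts in which few genes changed, in equal numbers up and down. In these data far more genes were called, so that run does not test the scaling. Sequences come from RefSeq tables of build GRCm38.p6. Plots used matplotlib 3.10.9 (Python 3.11.15).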

Additional observations from a re-analysis of the deposited data

Results flagged for a closer look

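Of 52 groups of values (26 genes, members and called pathway genes, at 2 ages), 5 held a library whose gap to its nearest neighbour was a large part of the whole range of the group (Dixon's test at 95%). Chance flags about 1 in 20 groups. Igf1 was at 78.4 CPM in aged replicate 6, where the other aged libraries lay between 22.6 and 29.9 CPM. Igfbp4 was at 404 CPM in the same library, above 202 to 251 CPM in the others. Igfbp7 was at 417 CPM in young replicate 7, above 315 to 359 CPM; its gap was just past the critical value. Stat5a was at 18.6 CPM in young replicate 6, below 21.4 to 23.2 CPM. Plagl1 was at 113 CPM in young replicate 5, above 65.5 to 83.9 CPM.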

How the results depend on the processing

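Of 269 values of the members under the alternatives, 229 kept their direction and their side of the threshold, 27 lost their call, 4 gained one and 9 changed sign. For the 16 called pathway genes these were 377, 43, 0 and 5 of 425 values. Values that changed sign were counted apart, whether or not the call was lost as well. The scaling moved the split across the table: library sizes alone gave 7034 genes higher and 1253 lower, log2(FPKM + 1) 6250 and 1361, and log2(FPKM + 0.1) 6234 and 1366, against 3471 and 3033. Library sizes alone called 4 members higher, 9 pathway genes higher and 6 lower. Both FPKM scales called 3 members lower, 7 pathway genes higher and 6 lower, and log2(TPM + 1) 3 members lower. With the blood-cell score as covariate 2632 genes were called (1443 higher, 1189 lower), with 3 members (0 higher, 3 lower) and 6 pathway genes (2 higher, 4 lower). With the muscle score these were 3781 (2019 and 1762), 3 members (1 and 2) and 12 pathway genes (4 and 8). With the bone score (r = −0.887 with the age group) they were 1139 (463 and 676), 3 members (0 and 3) and 6 pathway genes (2 and 4). Signs changed for Igf2r (0.062), Igfbp4 (−0.16), Igfbp5 (0.28) and Pappa (0.19) with the blood-cell score, for Igfbp4 (−0.45) and Pappa (0.45) with the bone score, and for Shc1 with library sizes alone (0.034) and on the FPKM scales (0.030 and 0.030). With 1 library left out, Igf1r spanned −0.026 to 0.038 and Igfbp4 −0.016 to 0.22. The causes were not tested. Igfbp2 was not tested under the stricter filter, which it did not pass. Igf2bp3 had values in 7 of the 13 fits with 1 library left out and in 13 of the 14 other settings.

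The ages share replicate numbers in the labels, which give no shared source, and the deviations of same-numbered libraries correlated between −0.12 and 0.258 over 6 pairs (2 of 6 aged libraries correlated best with their own number). With the replicate block, which sets young replicate 7 aside, 5789 genes, 6 members (2 higher, 4 lower) and 16 pathway genes were called, and Igf2r lost its call (−0.22, adjusted p = 0.0588). Depth limits the values of Igfbp2, at 4 to 27 expected counts per library, and of Igf2bp3, at 0 to 24.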
